A study of Mus musculus with 4 samples.

Results

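The genes described here are the 10 that set the passage of a cell through G1: the kinases Cdk4 and Cdk6, the D-type cyclins Ccnd1, Ccnd2 and Ccnd3, the inhibitors Cdkn1b (p27), Cdkn2c (p18) and Cdkn2d (p19), the pocket protein Rb1 and the transcription factor E2f1. They were chosen by symbol from the 32285 genes of the single-cell count matrices, and all 10 were found. Bone marrow cells of 4 tumour-bearing mice of the 5TGM1 model were sequenced as single cells in droplets, with 1 library per mouse. Each mouse had received 5TGM1-luc myeloma cells, a luciferase-marked line from 1 mouse myeloma, by vein at 6 weeks of age on the C57BL/KawRij background. Starting 3 weeks later, 2 mice were given vehicle and 2 mice were given 10 mg/kg PM (purinostat mesylate, an inhibitor of class I and IIb histone deacetylases), and marrow was taken after 24 h and freed of red cells. The study set up this comparison to learn what PM does to the myeloma cells and to the marrow around them.

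D-type cyclins bind Cdk4 or Cdk6, and the active complexes phosphorylate the product of Rb1, which then releases E2F factors such as E2f1 to switch on genes for DNA replication. Cdkn2c and Cdkn2d belong to the INK4 family and bind Cdk4 and Cdk6 directly, while Cdkn1b binds cyclin-kinase complexes and restrains mainly those of Cdk2. In marrow, Cdk6 is known from stem and progenitor cells, Ccnd3 from dividing pre-B cells and erythroblasts, and Cdkn2c and Cdkn1b from the exit of B-lineage and plasma cells from the cell cycle.

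The libraries held 8242 to 13848 barcodes with 69828595 to 109447030 UMIs (unique molecular identifiers, 1 per captured transcript), and 166 of the 41393 barcodes occurred in more than 1 library. Filters on genes and mitochondrial share kept 7826 to 13387 cells per mouse, with a median of 4717 to 6067 UMIs. These fell into 13 main types by marker genes, with 453 cells left unnamed, 238 of them in PM replicate 1. Defining markers were present in every mouse for every type, apart from 1 of 16 dendritic cell markers in PM replicate 2. The 10 genes took no part in the clustering. Levels are given in CPM: the UMIs of 1 gene summed over the cells of 1 type in 1 mouse, scaled to 1000000 UMIs in that sum. UMIs mark the 3′ ends of transcripts, so CPM needs no correction for gene length, although genes may still be captured unequally. A lower CPM can come from less RNA per cell or from fewer expressing cells, which the sums do not tell apart.

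Among the kinases, Cdk4 (chromosome 10, 127063534 to 127067920, GRCm38) and Cdk6 (chromosome 5, 3341485 to 3531008) had different profiles over the types of the vehicle mice. Cdk4 was highest in erythroid&prog cells at 197 ± 31 CPM (mean ± SD, n = 2 mice), megakaryocytes, HSPC (haematopoietic stem and progenitor cells) and clonal myeloma cells at 163 ± 12 CPM, and the ranges of neighbours in that order overlapped. It was lowest in neutrophils, at 6.74 ± 0.64 CPM. Cdk6 reached 694 ± 46 CPM in HSPC, 487 ± 63 CPM in eosinophil/basophil prog and 349 ± 15 CPM in erythroid&prog, and these 3 ranges did not overlap. Granulocyte-monocyte progenitors made up 416 of 485 and 309 of 364 HSPC in the vehicle mice, so HSPC values are mostly theirs. Megakaryocytes and platelets stood at 917 ± 782 CPM, with 1470 CPM in vehicle replicate 1 and 365 CPM in replicate 2, so their place in the order is not fixed by 31 and 34 cells. Clonal myeloma cells had 1.21 ± 1.7 CPM of Cdk6, the lowest of the 13 types. The order over types is a description without a test, since the types were built from these cells.

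The D-type cyclins divided the marrow between them. Ccnd3, the cyclin of pre-B and erythroid division, was highest in erythroid&prog (558 ± 58 CPM) and neutrophils (507 ± 75 CPM), whose ranges overlapped. It was lowest in other plasma-like cells at 34.4 ± 14 CPM, with a range that overlapped that of clonal myeloma cells at 37.1 ± 4.8 CPM. The fit of both groups below, on another scale, had Ccnd3 lower in the clonal cells. Ccnd2, which growth-factor signals induce in lymphocytes, led in T cells at 713 ± 72 CPM, above the range of every other type, with clonal myeloma cells next at 423 ± 253 CPM. Ccnd1 was highest in dendritic cells (DC), at 487 ± 36 CPM against 43.6 ± 11 CPM in megakaryocytes and platelets, the next type, 11.2-fold less. The DC type was a single cluster of 884 cells that matched plasmacytoid DC best, with 8 of 8 of their markers raised. No separate cluster of conventional DC was named, so DC values here are mainly those of plasmacytoid DC. Ccnd1 led in this type by its level. It made up 47.2% and 53.7% of the D-type cyclin UMIs of DC in the vehicle mice, whereas Ccnd3 made up 98.8% and 98.0% in neutrophils and Ccnd2 91.5% and 78.6% in clonal myeloma cells. Genes most like Cdk6 over the 13 vehicle types, by Pearson r of log2(CPM + 1), were Fam92a (0.94), Bex3 (0.93) and Mtln (0.93). For Ccnd1 they were Arhgap5 (0.86), 4931406C07Rik (0.83) and Rnf150 (0.81), for Ccnd2 Msi2 (0.89), Miga1 (0.86) and Pcgf6 (0.86), and for Ccnd3 Ehbp1l1 (0.95), Ppp1cb (0.93) and Exoc6 (0.93). The 13 points come from the same 2 mice, and these r values are descriptions.

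**Figure D1:**
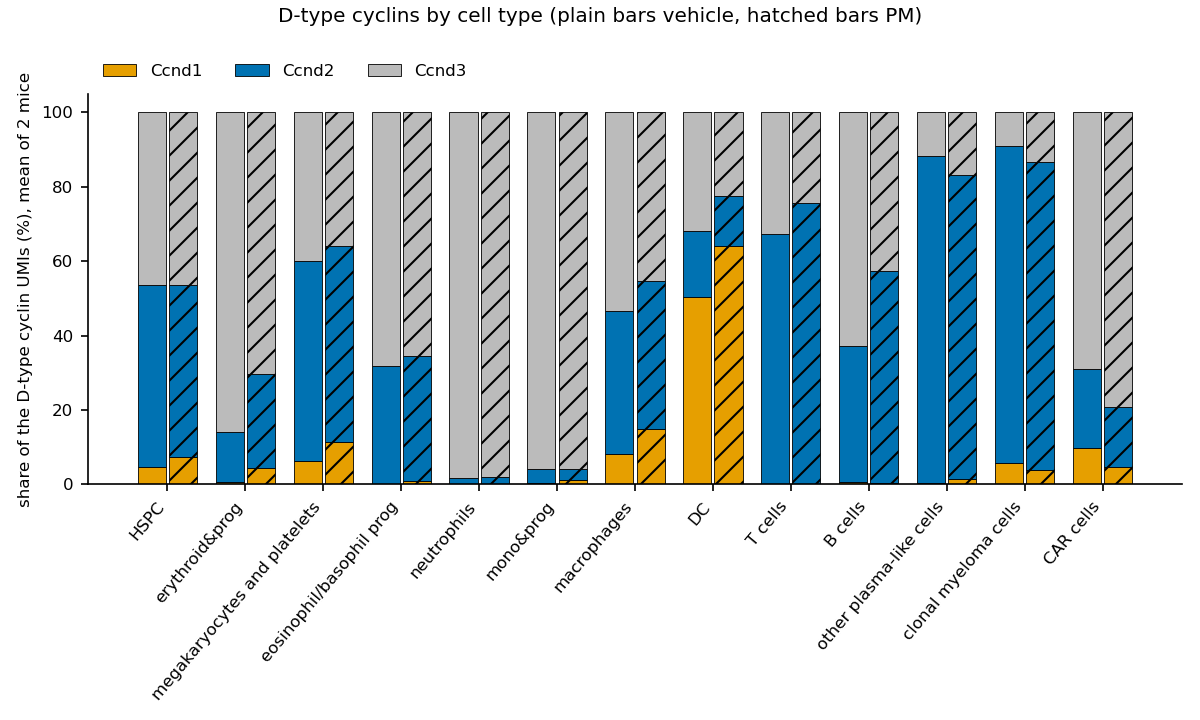
Share of the D-type cyclin UMIs (%, vertical axis) taken by Ccnd1, Ccnd2 and Ccnd3 in each cell type, as the mean of 2 mice, with plain bars for vehicle and hatched bars for PM. Ccnd3 takes nearly all in neutrophils and mono&prog, Ccnd2 most in T, plasma-like and clonal cells, and Ccnd1 about as much as the others together in DC alone. In B cells Ccnd2 goes from 40.3% and 32.7% in the vehicle mice to 57.3% and 56.3% in the PM mice.

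Of the inhibitors, Cdkn1b was highest in B cells at 253 ± 2.8 CPM and T cells at 208 ± 2.6 CPM and lowest in HSPC at 40.2 ± 4.8 CPM, with B and T cells apart from each other. Cdkn2c ran from 82.6 ± 15 CPM in erythroid&prog to 9.19 ± 2.2 CPM in other plasma-like cells, and CXCL12-abundant reticular (CAR) cells had no UMI in either vehicle mouse. That count of 0 allows up to 27.8 and 25.5 CPM in these 2 small sums. Cdkn2d was highest in neutrophils at 208 ± 36 CPM. Rb1 (chromosome 14, 73183673 to 73325822) ran from 135 ± 12 CPM in erythroid&prog and 92.7 ± 4.0 CPM in B cells down to 24.8 ± 1.5 CPM in other plasma-like cells, and clonal myeloma cells lay far below at 0.809 ± 1.1 CPM. E2f1, itself a target of E2F, was highest in erythroid&prog at 77.5 ± 8.1 CPM and HSPC at 50.3 ± 1.7 CPM.

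**Figure D2:**
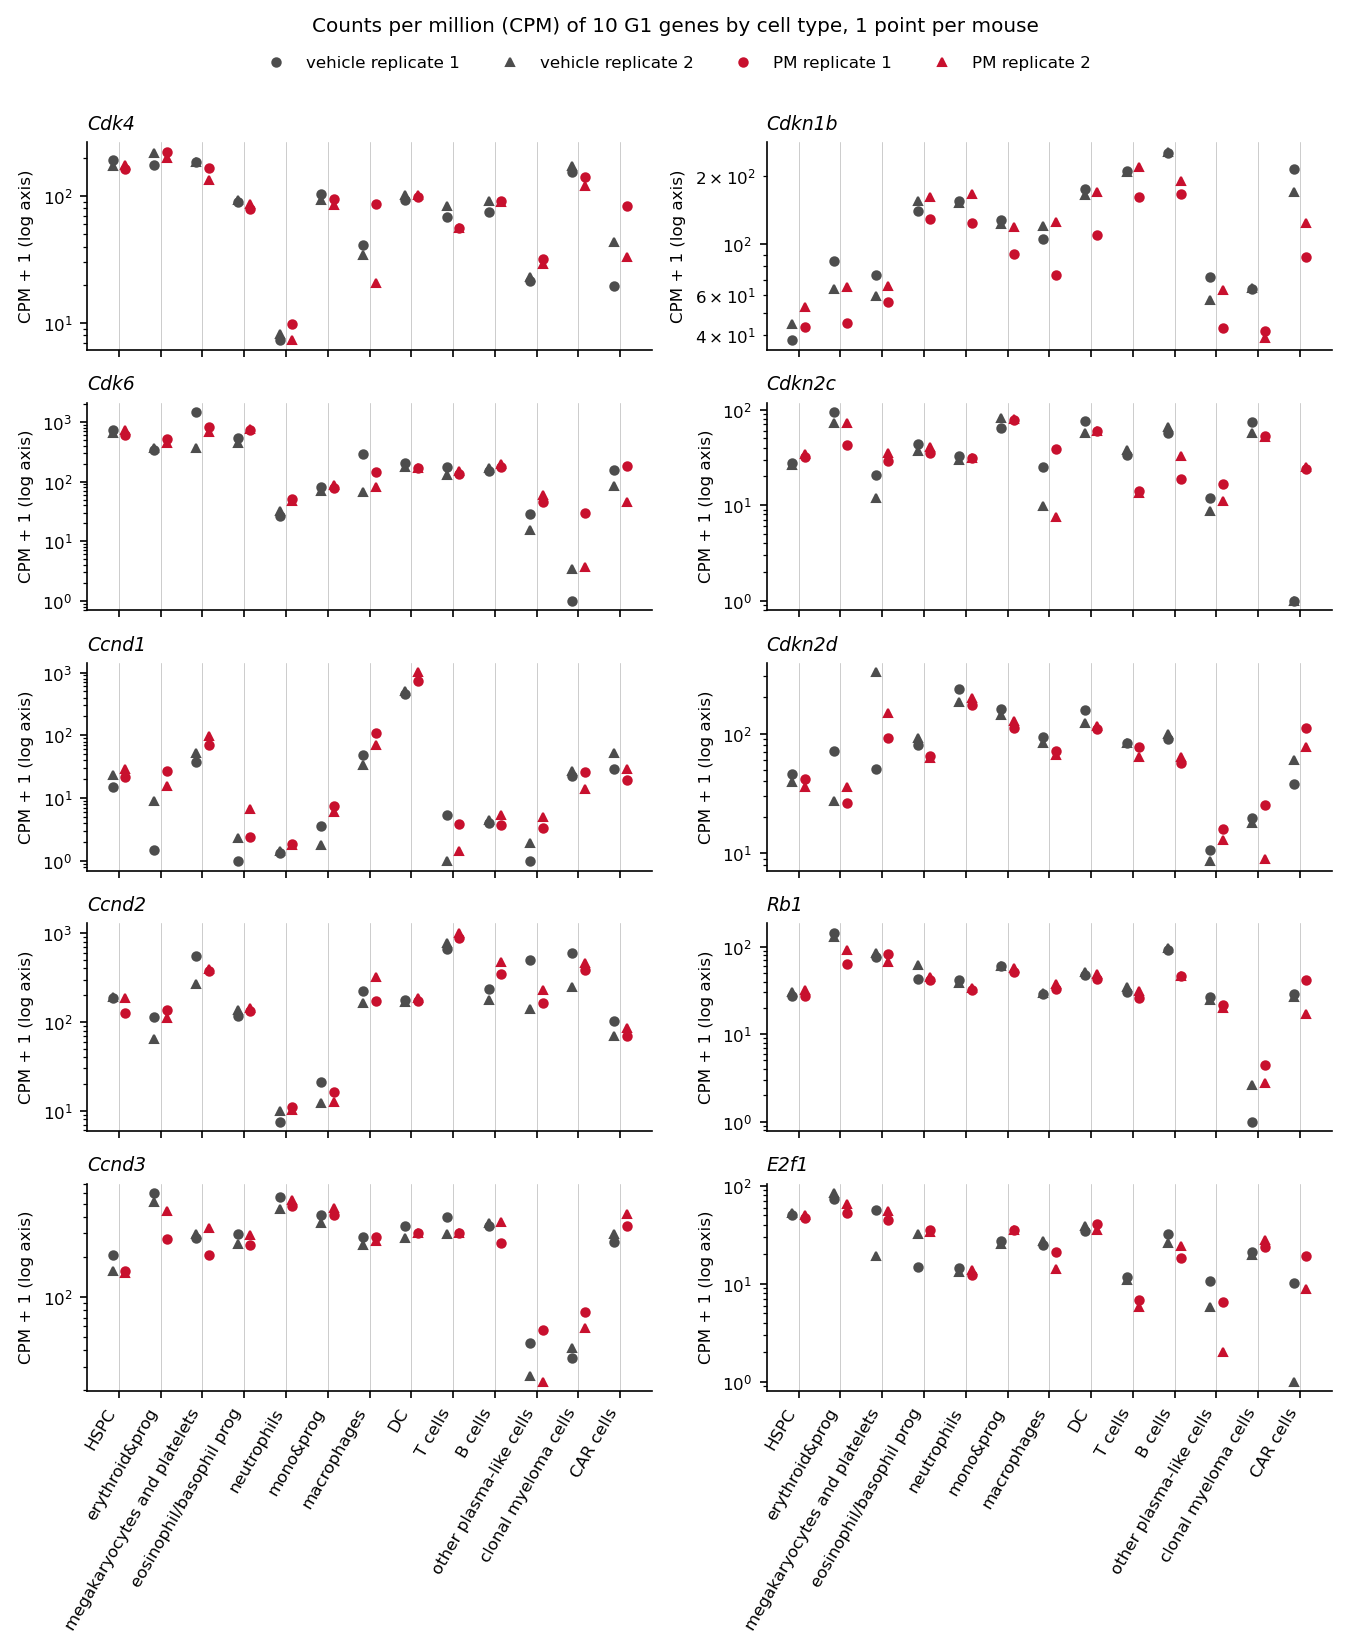
Level of each of the 10 genes (CPM + 1, log axis) in the 13 cell types, with 1 point per mouse: vehicle in grey, PM in red, circles for replicate 1 and triangles for replicate 2. Differences between types are mostly larger than those between treatments, as for Ccnd1 in DC and Rb1 in clonal myeloma cells. The red points of Ccnd2 lie above and those of Cdkn2c, Cdkn2d, Cdkn1b and Rb1 below the grey ones in B cells.

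Cells were also split within each type and mouse by whether they held a UMI of Mki67 or the other 19 mitotic genes, in the 42 combinations with enough cells. Cdkn2c was higher in the cells with mitotic UMIs in 40 of the 42, with a median ratio of 4.85, followed by E2f1 in 34 with 2.02 and Cdk4 in 39 with 1.93. Cdkn1b was higher there in 9 and Ccnd2 in 12, with median ratios of 0.72 and 0.62. Rb1, Ccnd3 and Cdk6 had median ratios of 1.09, 1.11 and 1.27. The INK4 inhibitor Cdkn2c was thus higher in cells with mitotic transcripts in nearly every type and mouse, while Cdkn1b lay mostly on the other side. Cells with more UMIs are more likely to hold a mitotic UMI, and the ratios are given as descriptions.

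The promoters of Cdk6, Cdkn1b and Cdkn2c are shown because the PM comparisons below turn on these genes and because Cdkn2c moved most with the mitotic split. RefSeq start sites on GRCm38.p6 gave windows of 250 bases before to 50 after the start for 7 of the 10 genes, 9 windows in all. Both strands were searched for TTCCCGC and also for TTGGCGC, for TTCGCGC and for TTGCCGC, letters of the E2F type, and a match is in capitals. The Cdk6 window is chr5:3343643-3343942 on the plus strand, the Cdkn1b window chr6:134920151-134920450 on the plus strand, and the Cdkn2c windows chr4:109665323-109665622 and chr4:109666707-109667006 on the minus strand.
Cdk6: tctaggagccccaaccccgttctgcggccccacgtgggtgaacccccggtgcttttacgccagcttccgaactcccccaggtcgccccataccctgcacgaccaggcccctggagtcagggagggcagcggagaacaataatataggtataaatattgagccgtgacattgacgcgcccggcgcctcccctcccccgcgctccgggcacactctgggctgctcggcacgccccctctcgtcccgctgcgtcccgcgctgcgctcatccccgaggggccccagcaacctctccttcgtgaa
Cdkn1b: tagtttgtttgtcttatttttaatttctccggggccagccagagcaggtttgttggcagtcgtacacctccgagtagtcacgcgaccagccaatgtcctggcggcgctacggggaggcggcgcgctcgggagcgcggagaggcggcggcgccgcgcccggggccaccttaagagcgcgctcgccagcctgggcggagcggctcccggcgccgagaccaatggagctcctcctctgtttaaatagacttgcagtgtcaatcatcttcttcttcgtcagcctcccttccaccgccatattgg
Cdkn2c, start 1: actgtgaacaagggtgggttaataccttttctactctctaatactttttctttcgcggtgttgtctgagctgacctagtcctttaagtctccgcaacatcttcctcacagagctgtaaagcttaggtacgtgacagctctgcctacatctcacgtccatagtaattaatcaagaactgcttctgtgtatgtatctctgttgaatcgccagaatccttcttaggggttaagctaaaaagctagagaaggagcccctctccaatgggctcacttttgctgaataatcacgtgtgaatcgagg
Cdkn2c, start 2: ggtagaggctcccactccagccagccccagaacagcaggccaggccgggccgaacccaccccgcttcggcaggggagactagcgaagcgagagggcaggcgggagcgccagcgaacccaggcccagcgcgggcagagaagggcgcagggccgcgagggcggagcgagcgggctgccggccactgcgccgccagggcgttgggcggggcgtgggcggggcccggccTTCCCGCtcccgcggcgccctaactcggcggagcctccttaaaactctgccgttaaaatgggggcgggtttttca
The only match among the 9 windows was TTCCCGC in the upstream Cdkn2c window, 25 bases before the start. Some windows lie inside the gene bounds of the other annotation. The Cdk6 window begins at 3343643 and the gene at 3341485. The E2f1 window ends at 154569676, while that minus-strand gene begins at 154569892. Sequence at those outer starts was not searched. Of all 32851 RefSeq windows of this length, 3145 (9.57%) held a match, so 1 of 9 is a share near that of promoters in general. A match of letters is no evidence of binding.

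PM and vehicle were compared within each type on the sums per mouse with edgeR's quasi-likelihood test. A gene was called at an adjusted p below 0.05 (Benjamini-Hochberg over all genes of the type) and a log2 fold change beyond 0.5 in size. With 2 mice against 2, an exact permutation test cannot go below p = 0.33, so each call rests on the model. For the same reason groups that do not overlap are common without any effect. Their share over all genes was not counted, and lack of overlap is given below as a description. Over the 13 types, 116 of the 130 pairs of gene and type passed the filter on low counts and 7 of them were called, 2 higher and 5 lower, where 1.38% of all genes tested were called. The 7 calls were 5 in B cells, Cdk6 in neutrophils and Cdkn2c in T cells, and the other 10 types had none. The median log2 fold change of the 116 pairs was -0.11. By gene, Cdkn1b was above 0 in 1 of 13 types with a median of -0.30, Rb1 in 1 of 11 with -0.21, and Cdkn2d in 3 of 13 with -0.26. Ccnd1 was above 0 in 7 of the 8 types where it was tested, with a median of 0.99, although no type passed the call. Cdk4 was above 0 in 6 of 12 types and Cdk6 in 6 of 12. Cdkn1b, Rb1 and Cdkn2d were each called in B cells only. All types come from the same mice, so the types are not independent of each other. The share of all genes with counts of types as uneven as these was not computed. These counts of types are therefore descriptions and do not show an effect across the marrow.

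B cells held most of the called changes: Ccnd2 rose and all 3 inhibitors and Rb1 fell. Ccnd2 (chromosome 6, 127125162 to 127152193) stood at 232 and 174 CPM in the vehicle mice against 343 and 471 CPM in the PM mice. Both PM values were above both vehicle values, and the log2 fold change was 1.03 ± 0.17 (SE; edgeR adjusted p = 0.00028). Of the 9 members tested in B cells, Ccnd2 was the 1 called higher, as were 3.33% of the 10489 genes tested.

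Cdkn2c (chromosome 4, 109660876 to 109667189) went from 55.8 and 64.8 CPM to 17.9 and 31.5 CPM, with a log2 fold change of -1.37 ± 0.23 (edgeR adjusted p = 0.00027). Rb1 went from 89.8 and 95.5 CPM to 45.4 CPM in each PM mouse, -1.04 ± 0.17 (edgeR adjusted p = 0.00014). In both genes both PM mice lay below both vehicle mice. The smaller changes were Cdkn2d, from 88.3 and 98.7 CPM to 55.9 and 63.3 CPM (-0.68 ± 0.17, edgeR adjusted p = 0.011), and Cdkn1b, from 251 and 255 CPM to 165 and 189 CPM (-0.52 ± 0.15, edgeR adjusted p = 0.028). These 4 of 9 members tested were called lower, against 3.28% of all genes. Cdk4, Cdk6, Ccnd3 and E2f1 were not called, with log2 fold changes from -0.43 to 0.19.

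The make-up of the B cells moved with these values. Mature B cells were 66.2% and 49.0% of the B cells in the vehicle mice against 88.8% and 83.5% in the PM mice, small pre-B and immature cells 22.4% and 39.1% against 6.29% and 9.56%, and pro-B and large pre-B cells 11.4% and 12.0% against 4.94% and 6.97%. Among B cells without a mitotic UMI, the log2 fold change of Cdkn2c was -0.10 (edgeR adjusted p = 0.94) and that of Ccnd2 0.53 (adjusted p = 0.066), while Rb1 remained called at -0.90 (adjusted p = 0.0052). Cdkn1b (-0.35, edgeR adjusted p = 0.22) and Cdkn2d (-0.37, adjusted p = 0.37) were not called in these cells either. Without vehicle replicate 2, the adjusted p of Ccnd2, Cdkn2c and Rb1 went to 0.068, 0.14 and 0.052, and DESeq2 called neither Cdkn1b (adjusted p = 0.28) nor Cdkn2d (0.37). The call of Cdkn1b was also lost without any 1 of the 4 mice (edgeR adjusted p from 0.053 to 0.41), and that of Cdkn2d without vehicle replicate 2 (0.33) or PM replicate 1 (0.20). Leaving out doublets ended the calls of Ccnd2 (0.93, edgeR adjusted p = 0.074), Cdkn1b (0.10) and Cdkn2d (0.097).

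Within single stages the calls were 9 of 105 pairs, 5 higher and 4 lower. Over all genes there were 2276 calls in the 12 stages, with 4186 to 12032 genes tested in each. The share of genes called in the same direction is given with each member call. Pro-B and large pre-B cells, the dividing precursors of the lineage, had 4 of them from 27, 115, 70 and 51 cells per mouse (vehicle replicates 1 and 2, then PM replicates 1 and 2). Ccnd2 stood there at 66.9 and 174 CPM in the vehicle mice against 662 and 869 CPM in the PM mice. The PM values were several-fold above the vehicle values, at a log2 fold change of 2.52 ± 0.31 (edgeR adjusted p = 0.00022), in a stage where 1.31% of 7711 genes were called higher. Ccnd2 was also higher in both PM mice within each of the 3 clusters that make up this stage: 437 and 236 CPM against 0 and 114 CPM in cluster 31, 96.0 and 73.8 against 48.0 and 6.25 in cluster 35, and 828 and 1360 against 418 and 480 in cluster 37. Some of these sums were small: vehicle replicate 1 had 18, 7 and 2 cells in the 3 clusters, with 0, 2 and 8 UMIs of Ccnd2, and its count of 0 in cluster 31 allows up to 33.9 CPM. Cluster 35 held 2, 2, 7 and 9 UMIs of Ccnd2 in the 4 mice. Clusters 31 and 35 scored only 0.395 and 0.164 higher for this stage than for the next stage. They held most of the vehicle cells of the stage, and their stage is uncertain. Cluster 37 had Igll1, Vpreb1 and Dntt, an enzyme of early V(D)J joining, as its leading genes. It made up 7.41% and 16.5% of the stage in the vehicle mice against 41.4% and 35.3% in the PM mice. Doublets were called in 27.9% of its cells. Since cluster 37 had the most Ccnd2 in both groups, the pooled change mixes make-up with level. The part of this make-up in the pooled changes of the stage was not tested.

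The 3 members called lower in pro-B and large pre-B cells, against 1.22% of all genes, were Cdkn2c, Rb1 and Cdkn1b. Cdkn2c went from 187 CPM in each vehicle mouse to 48.8 and 81.7 CPM in the PM mice (-1.48 ± 0.27, edgeR adjusted p = 0.0088). Rb1 went from 181 and 115 CPM to 56.1 and 41.6 CPM (-1.38 ± 0.30, edgeR adjusted p = 0.018). Cdkn1b went from 241 and 182 CPM to 76.9 and 89.4 CPM (-1.22 ± 0.25, edgeR adjusted p = 0.015). The groups of these called genes did not overlap, which is a description and adds no test. Within clusters 31 and 35 both PM values were below both vehicle values for each of the 3 genes, whereas in cluster 37 the groups overlapped for Rb1 and Cdkn1b. Cdkn2d pointed the same way without a call, from 187 and 168 CPM to 65.9 and 108 CPM (-0.96, edgeR adjusted p = 0.067). The share of these cells with a mitotic UMI, after thinning to 1000 UMIs each, was 92.6% and 96.4% in the vehicle mice against 82.9% and 98.0% in the PM mice. Without PM replicate 1, the adjusted p was 0.070 for Cdkn2c and 0.073 for Cdkn1b.

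**Figure D3:**
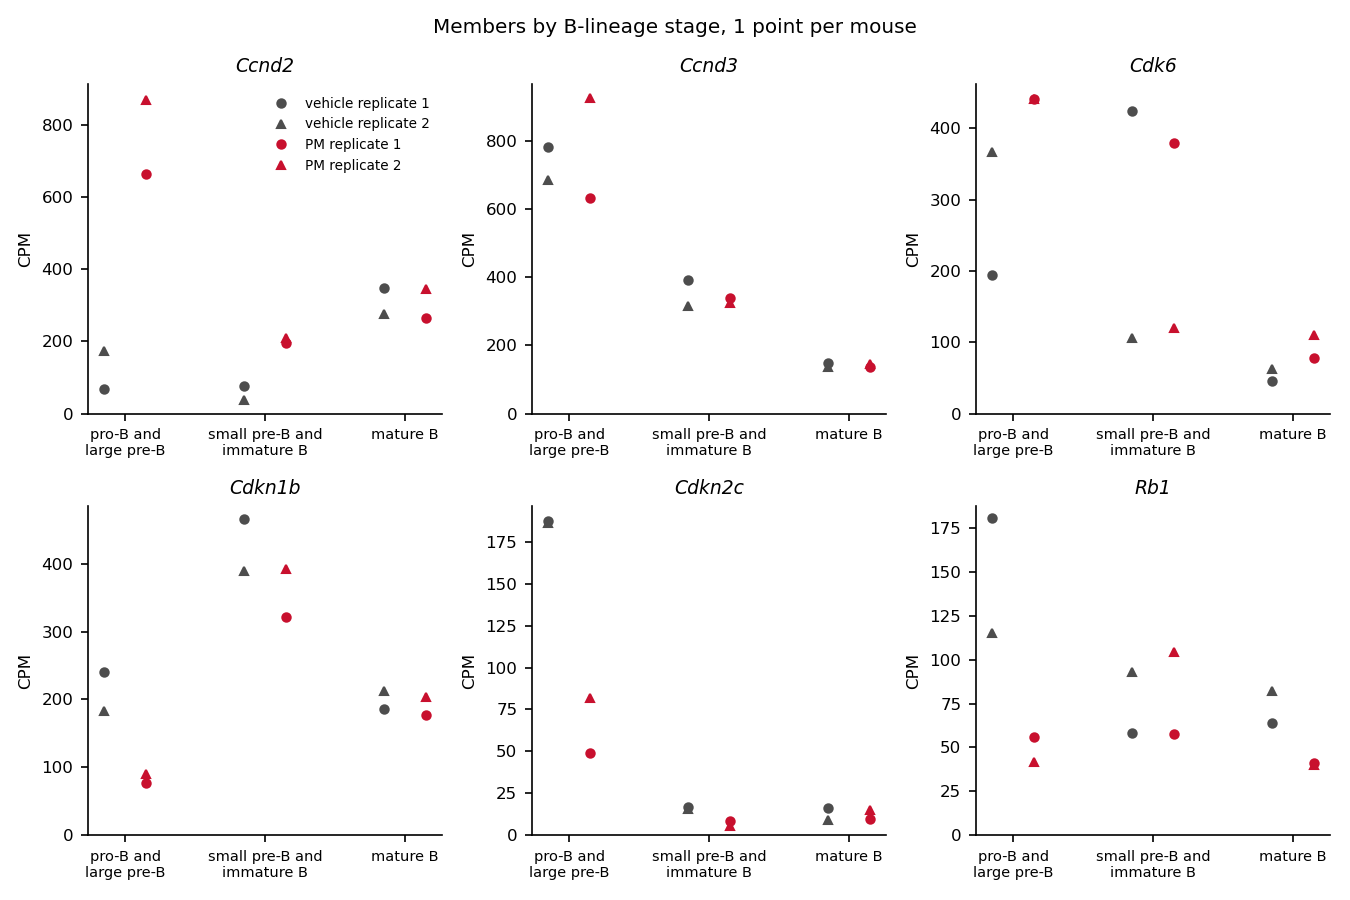
CPM (vertical axes) of Ccnd2, Ccnd3, Cdk6, Cdkn1b, Cdkn2c and Rb1 in 3 stages of the B lineage, with 1 point per mouse, vehicle in grey and PM in red. In pro-B and large pre-B cells the PM mice lie at 662 and 869 CPM for Ccnd2 above the vehicle mice and below them for Cdkn1b, Cdkn2c and Rb1. In mature B cells the vehicle and PM points of Ccnd2 interleave.

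In small pre-B and immature B cells, which normally leave the cycle, Ccnd2 was at 74.8 and 36.2 CPM in the vehicle mice against 194 and 209 CPM in the PM mice, from 9, 33, 47 and 40 UMIs. The groups did not overlap, and the log2 fold change was 2.31 ± 0.31 (edgeR adjusted p = 2.3e-07), in a stage where 1.82% of genes were called higher (79 higher and 33 lower, or 53 and 37 with library totals as the scale). Without vehicle replicate 2, which left 9 vehicle UMIs, it was 1.51 (adjusted p = 0.16). The 2 groups lay mostly in different clusters of this stage. Cluster 15 held 36 of 53 and 256 of 376 vehicle cells and 10 of 89 and 18 of 70 PM cells, while cluster 36 held 1 and 2 vehicle cells and 43 and 30 PM cells. Ccnd2 was apart within cluster 33, at 157 and 121 CPM in the vehicle mice (11 and 33 cells) against 318 and 234 CPM in the PM mice (29 and 14 cells). It overlapped within cluster 15, at 0 and 9.96 CPM against 0 and 273 CPM, and within cluster 32, at 385 and 68.9 CPM against 303 and 498 CPM, and the 3 vehicle cells of cluster 36 held no UMI. Cluster 33 had Vpreb1, Igll1 and Dntt as its leading genes, which are on the marker list of pro-B and large pre-B cells. Its score for the small pre-B and immature stage was only 0.443 above that of the next stage. The stage of that cluster is therefore uncertain. A change within 1 kind of cell and a change of make-up cannot be told apart here for most of the stage.

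In mature B cells Ccnd2 was at 348 and 274 CPM in the vehicle mice against 264 and 346 CPM in the PM mice, so the groups overlapped. Rb1 was the only member called, at 63.8 and 82.2 CPM against 41.3 and 40.1 CPM, with no overlap (-0.93 ± 0.21, edgeR adjusted p = 0.0087, where 0.333% of genes were called lower). DESeq2 gave that difference an adjusted p of 0.98, and leaving out vehicle replicate 1, vehicle replicate 2 or PM replicate 1 also ended the call. Cdkn1b was at 186 and 213 CPM against 177 and 204 CPM, and Ccnd3 at 149 and 136 CPM against 137 and 146 CPM, both with overlap. Thinned mitotic shares in these cells were 6.62% and 6.02% in the vehicle mice against 14.4% and 13.2% in the PM mice, and Ccna2 (2.70) and Mki67 (1.34) were called higher on the log2 scale.

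In neutrophils Cdk6 rose. It was at 25.1 and 31.3 CPM in the vehicle mice against 49.8 and 46.3 CPM in the PM mice. Both PM values were above both vehicle values (log2 fold change 0.70 ± 0.13, edgeR adjusted p = 0.018), in a type where 4.65% of genes were called higher. By stage, neutrophil precursors had 54.4 and 63.8 CPM against 83.3 and 88.5 CPM without a call (0.47, edgeR adjusted p = 0.055).

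Immature neutrophils had 15.7 and 22.2 CPM of Cdk6 against 40.8 and 42.2 CPM (1.02 ± 0.16, edgeR adjusted p = 0.0034, beside 5.37% of genes called higher). With library totals as the scale, which moved the median of all genes there to 0.12 and the calls from 557 higher and 151 lower to 907 and 72, Cdk6 was at 1.14. Mature neutrophils had 7.58 and 9.79 CPM against 20.8 and 14.4 CPM (1.06 ± 0.24, edgeR adjusted p = 0.040, beside 4.48%). Cdk6 was lower in mature than in precursor cells in every mouse, and the PM mice lay above the vehicle mice at each stage. The groups also stayed apart within the clusters of the first 2 stages, for example at 9.97 and 13.02 CPM against 29.6 and 30.9 CPM in the larger immature cluster, which held 972, 625, 1669 and 1249 cells. In mature neutrophils, where some clusters came mostly from 1 mouse or 1 group, they overlapped in 3 of 6 clusters. HSPC markers, of cells with far more Cdk6, moved in the same direction. In immature neutrophils 12 or 13 of 13 were detected, and they summed to 104 and 92.6 CPM in the vehicle mice against 228 and 174 CPM in the PM mice. In mature neutrophils they summed to 102 and 83.3 CPM against 267 and 165 CPM. The list includes Elane, Prtn3 and Ms4a3, which were also used as markers of neutrophil precursors, so its sum does not single out HSPC. The part of these transcripts in the result was not tested. Without vehicle replicate 1, the call in all neutrophils was lost (0.55, edgeR adjusted p = 0.14), and that in mature neutrophils was lost without vehicle replicate 1 (0.13), PM replicate 1 (0.29) or PM replicate 2 (0.098), with the replicate block (0.077) and among cells without mitotic UMIs (0.068). The call in immature neutrophils held under each of the alternatives run. Other members of neutrophils had no call. Rb1 came nearest at 40.6 and 37.4 CPM against 30.9 and 32.7 CPM (-0.37, edgeR adjusted p = 0.073), and Ccnd3, their main D-type cyclin, overlapped between groups at 454 to 560 CPM.

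In T cells (with natural killer cells counted among them) Cdkn2c fell. It was at 32.2 and 36.6 CPM in the vehicle mice against 13.1 and 12.3 CPM in the PM mice, from 36, 44, 45 and 28 UMIs. The groups were far apart for so few UMIs (-1.40 ± 0.27, edgeR adjusted p = 0.047), and 0.142% of genes were called lower. Natural killer cells had 51.4 and 65.2 CPM against 25.3 and 7.07 CPM, and the remaining T cells 24.1 and 28.1 CPM against 11.3 and 13.004 CPM. Neither part was called on its own, at edgeR adjusted p = 0.9988 and 0.25. Of the pooled UMIs, natural killer cells gave 330617 of 1119125 and 276017 of 1202491 in the vehicle mice. In the PM mice these cells gave a smaller share, 434108 of 3436508 and 282754 of 2282174. The part of this make-up in the pooled change was not tested. The call was lost when either vehicle mouse was left out, at -1.50 without vehicle replicate 1 and -1.29 without vehicle replicate 2. It was also lost among cells without mitotic UMIs, where the log2 fold change was -1.30 (edgeR adjusted p = 0.23).

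Of 20 mitotic genes, 3 were called lower in T and natural killer cells together, Top2a (-1.41), Cenpf (-1.41) and Kif11 (-1.27), and the list median was -0.97 beside -0.00 over all genes. The median was -0.22 in T cells without natural killer cells, with none of 19 called, and -1.95 in natural killer cells, with none of 14 called. The thinned share of the pooled cells with a mitotic UMI was 17.8% and 13.5% in the vehicle mice against 14.1% and 8.92% in the PM mice, which overlap. Ccnd2, the main cyclin of T cells, was at 662 and 763 CPM against 876 and 1006.5 CPM, apart but without a call (0.42, edgeR adjusted p = 0.22). Cdk4 was at 67.9 and 83.2 CPM against 55.0 and 54.8 CPM (-0.44, edgeR adjusted p = 0.33).

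The effects of PM in T cells and in 4 other types were compared by the interaction of type and treatment, with the mouse as a block. For Cdkn2c the PM effect in T cells was lower by a log2 difference of -1.48 than in mono&prog (edgeR adjusted p = 0.0017, where 1.79% of genes were called), -1.69 than in HSPC (0.0020, 1.7%) and -1.36 than in neutrophils (0.0051, 1.99%). Against B cells it was -0.02 (adjusted p = 0.99), and no member was called there, where 1.71% of genes were. Ccnd2 differed between T cells and HSPC by 0.75 (adjusted p = 0.0048): in HSPC it was at 184 and 192 CPM in the vehicle mice against 125 and 184 CPM in the PM mice. The Cdk6 effect in T cells and neutrophils differed by -0.80 without a call (adjusted p = 0.053).

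Ccnd1 (chromosome 7, 144929931 to 144939925) was higher in the PM mice in most types, and whether it was called depended on the setting. In DC, which carry most of it, the levels were 462 and 513 CPM in the vehicle mice against 742 and 1003 CPM in the PM mice. Those groups did not overlap (0.83 ± 0.17), and the difference missed the call with edgeR (adjusted p = 0.087) and passed it with DESeq2 (0.018), with no filter, with the replicate block, without PM replicate 1 and among cells without mitotic UMIs. Early stem and multipotent progenitors had 59.0 and 69.02 CPM against 127 and 125 CPM (0.97 ± 0.19, edgeR adjusted p = 0.073). That difference was called under 6 alternatives: no filter (0.00078), the replicate block (0.00057), without vehicle replicate 2 (0.0074), without PM replicate 2 (0.049), stricter cells (0.045) and library totals as the scale (0.033).

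Classical monocytes gave the 1 call for Ccnd1, at a low level: 1.12 and 0.52 CPM in the vehicle mice against 4.35 and 4.69 CPM in the PM mice, from 18, 6, 79 and 37 UMIs (2.36 ± 0.40, edgeR adjusted p = 0.031, beside 0.796% of genes called higher). The groups did not overlap, and the call was lost without PM replicate 1 (edgeR adjusted p = 0.070) and when the 10 genes took part in the clustering (1.96, adjusted p = 0.069). Of 8 markers of plasmacytoid DC, 7 or 8 were detected in these monocytes, and their sum went from 103 and 90.7 CPM in the vehicle mice to 171 and 146 CPM in the PM mice, mostly from Bst2. The part of DC transcripts in the monocyte values was not tested. Neutrophils, with 0.328 and 0.437 CPM against 0.898 and 0.826 CPM of Ccnd1, had the same order without a call (edgeR adjusted p = 0.13).

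**Figure D4:**
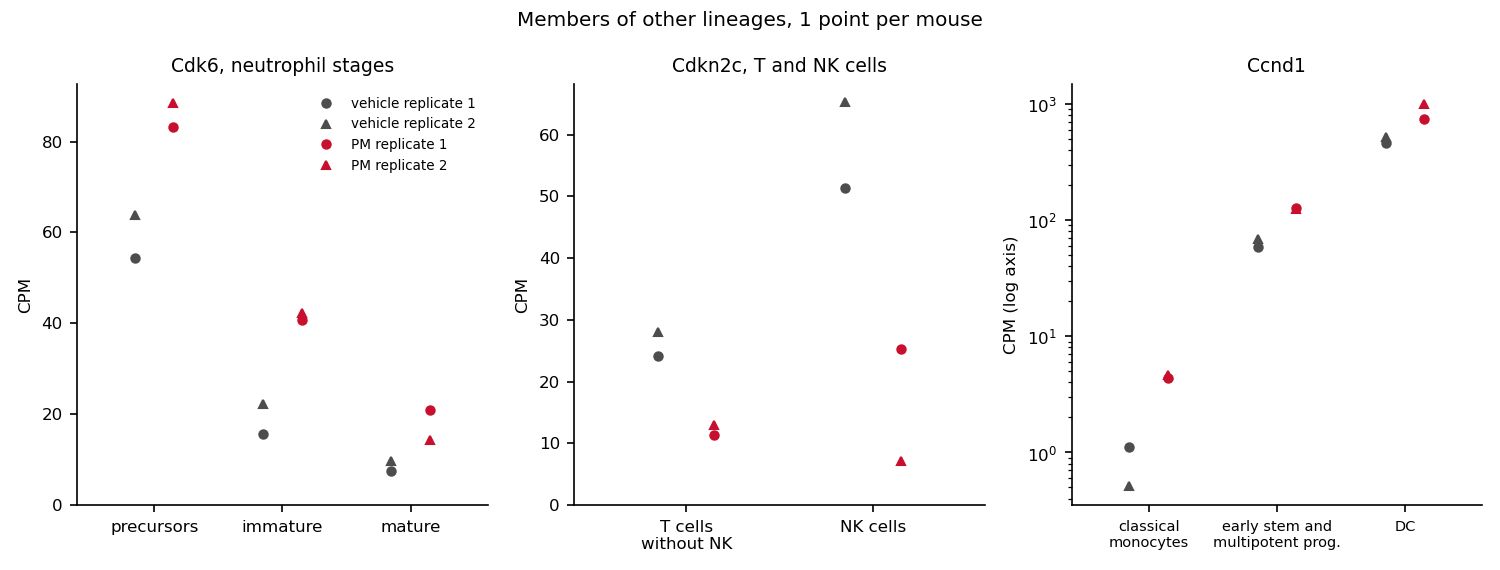
CPM of Cdk6 in 3 neutrophil stages, of Cdkn2c in T cells without natural killer (NK) cells and in NK cells, and of Ccnd1 (log axis) in classical monocytes, early stem and multipotent progenitors and DC, with 1 point per mouse. The PM mice, in red, lie above the vehicle mice for Cdk6 and Ccnd1 and below them for Cdkn2c in each set shown.

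Erythroid&prog cells had no call, although Rb1, at 144 and 127 CPM against 62.5 and 91.1 CPM, was lower in both PM mice (-0.90, edgeR adjusted p = 0.14). Ccnd3 there was at 599 and 517 CPM against 270 and 441 CPM (-0.73, edgeR adjusted p = 0.25). Both passed the call without PM replicate 2 (-1.17 and -1.11) and without vehicle replicate 2 (-1.01 and -0.86), and Rb1 also without vehicle replicate 1 (-0.78). Thinned mitotic shares of erythroid&prog were 83.5% and 86.8% in the vehicle mice against 71.2% and 79.1% in the PM mice. Their erythroid markers summed to 43839 and 23081 CPM against 14166 and 23336 CPM, which overlap. The part of these shifts in the Rb1 and Ccnd3 values was not tested. Eosinophil/basophil prog had Cdk6 at 531 and 443 CPM against 726 and 756 CPM (0.56, edgeR adjusted p = 0.34). HSPC overlapped between groups for it, at 726 and 661 CPM against 613 and 743 CPM, and for Cdk4, at 192 and 171 CPM against 163 and 174 CPM.

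Clonal myeloma cells were the plasma-like cells whose leading immunoglobulin genes were Ighg2b and Igkv10-96. There were 19, 27, 86 and 28 of them in the 4 mice, beside 214 other plasma-like cells and 71 that could not be decided. None of the 8 members tested in clonal cells was called between PM and vehicle by edgeR or by DESeq2, while 27 of 8390 genes were called by edgeR and 11 by DESeq2. Cdk6, with 0, 3, 90 and 3 UMIs in the 4 mice, and Rb1 fell under the low-count filter of edgeR and had no such test. Ccnd3 came nearest, at 33.7 and 40.5 CPM against 76.2 and 57.1 CPM, apart but not called (0.82, edgeR adjusted p = 0.29), though it was called without PM replicate 2 (1.02, adjusted p = 0.025). Cdkn1b, at 62.4 and 63.1 CPM against 40.5 and 37.8 CPM, was apart in the other direction (-0.70, edgeR adjusted p = 0.32), and these 2 were the only members under an unadjusted p of 0.05. Cdk4, at 155 and 172 CPM against 139 and 119.5 CPM, had -0.36 (edgeR adjusted p = 0.66). The interaction of cell group and treatment found no member whose PM effect differed between clonal and other plasma-like cells, beside 0.102% of all genes called. Cdk6 stood at 2.12 ± 2.43 (SE) in that fit, too wide to be read as no difference.

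Against the other plasma-like cells of the same mice, with the mouse as a block, 8 of the 10 members were called in the clonal cells, 3 higher and 5 lower, where 25.2% of 7782 genes were higher and 26.5% lower. CPM is scaled by the total of each sum and the fitted differences by TMM, which left the median of all genes at 0.01, so a fitted difference can be smaller than the ratio of the CPM or have the other sign. Clonal cells had nearly no Rb1: 0, 2, 11 and 2 UMIs, which is 0, 1.62, 3.48 and 1.76 CPM, against 25.9, 23.8, 20.5 and 19.0 CPM in the others. Clonal cells were below the others in every mouse (log2 fold difference -4.53 ± 0.42, edgeR adjusted p = 1.5e-06), and the count of 0 in vehicle replicate 1 allows up to 5.06 CPM. Cdk4 ran the other way, at 155, 172, 139 and 119.5 CPM against 20.5, 21.9, 30.8 and 28.0 CPM (1.13 ± 0.20, edgeR adjusted p = 0.00026).

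Cdkn2c, at 74.2, 55.8, 52.2 and 51.0 CPM against 10.8, 7.60, 15.8 and 10.0 CPM, was higher in the clonal cells of all 4 mice (0.99 ± 0.24, edgeR adjusted p = 0.0037). Ccnd1 was at 21.9, 25.9, 25.0 and 13.2 CPM against 0, 0.95, 2.37 and 4.00 CPM (2.12 ± 0.56, edgeR adjusted p = 0.0058). These 2 and Cdk4 did not overlap between the groups of cells. Cdk6 was called lower (-3.30 ± 0.83, edgeR adjusted p = 0.031) from 0, 3, 90 and 3 UMIs, but 88 of the 90 in PM replicate 1 lay in cells called as doublets, 49 of them in 1 cell. With doublets left out Cdk6 had too few counts for the test, and without vehicle replicate 2 its adjusted p was 0.11. Cdkn2d (-0.75, adjusted p = 0.079) and E2f1 (0.78, adjusted p = 0.14) were not called by edgeR. With doublets left out both were called, Cdkn2d at -1.31 (0.0048) and E2f1 at 1.09 (0.0498), as were Cdkn2d with cells taken by cluster (-0.95, 0.016) and E2f1 with library totals as the scale (2.13, 5.5e-05).

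The remaining calls depended on the scale. With library totals as the scale the median of all genes was 1.39, and 5907 genes were called higher and 539 lower, in place of 1963 and 2065. Ccnd2 (-0.55) and Ccnd3 (-0.80) were called lower on the TMM scale and higher with library totals (0.85 and 0.56), where both lay under the median of all genes. Cdkn1b (-1.56) was at -0.18 with library totals and no longer called. Rb1 (-3.23), Cdk6 (-2.07), Cdk4 (2.52), Cdkn2c (2.36) and Ccnd1 (3.45) kept their direction and their call.

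**Figure D5:**
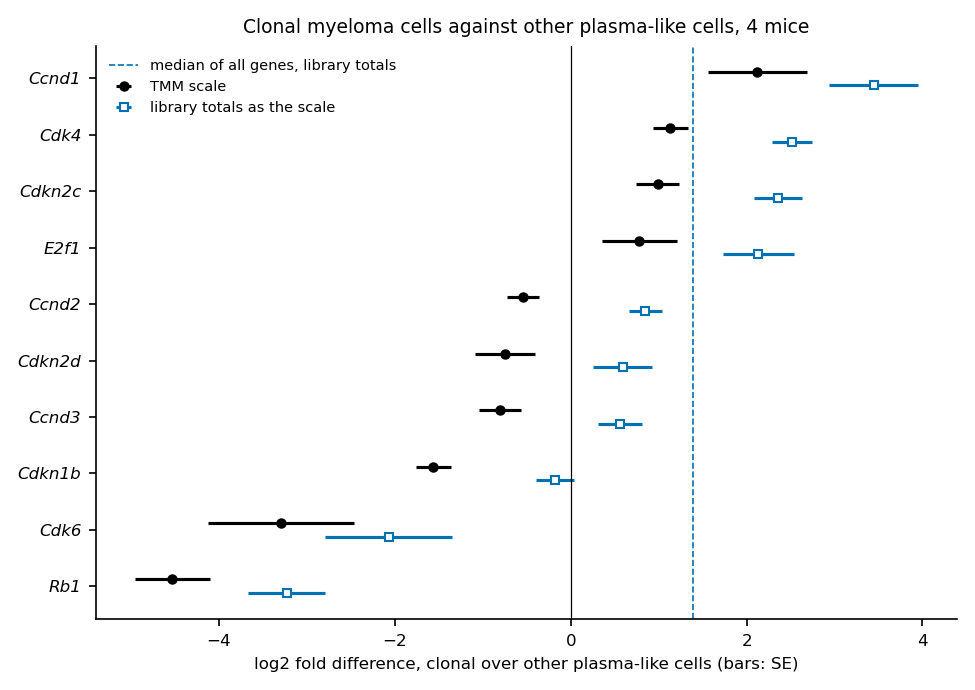
Log2 fold difference of each gene, clonal over other plasma-like cells (horizontal axis, bars are SE), in 4 mice with the mouse as a block, on the TMM scale (black) and with library totals as the scale (blue). The dashed line marks the median of all genes with library totals, at 1.39. Rb1 and Cdk6 lie far to the left and Ccnd1, Cdk4 and Cdkn2c to the right on both scales, while Ccnd2 and Ccnd3 change sides.

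Marker genes differed as well. The 8 plasma cell markers summed to 1571 to 3771 CPM in clonal cells and 46731 to 70634 CPM in the others, with Jchain the highest in each sum of the others. Neutrophil markers, 10 or 11 of 11 of them detected, summed to 1249 to 15103 CPM in clonal cells and 6079 to 25875 CPM in the others, and their part in the result was not tested. Thinned mitotic shares were 47.4%, 70.4%, 52.3% and 50% in the clonal cells and 10.8%, 5.77%, 10.0% and 4.55% in the others.

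Other genes of the pathway were read from 3 lists. Of 28 genes of the G1/S machinery, 24 were tested between clonal and other plasma-like cells, with 14 higher, 1 lower and a median of 1.27, beside 0.01 over all genes. The largest were Cdkn1a (2.88), the p21 inhibitor, and the E2F factors E2f3 (2.79) and E2f7 (2.74), and the 1 lower gene was the pocket protein Rbl2 (-1.31). Of 26 E2F targets, 24 were tested and 21 were higher, among them Mcm10 (2.86) and Dut (2.23), with a median of 1.75. Of 20 mitotic genes 18 were higher, led by Cenpf (3.05), Bub1 (2.92) and Plk1 (2.66), with a median of 2.32. All called changes on these lists but Rbl2 were thus toward the clonal cells. Between PM and vehicle in clonal cells none of the 3 lists had a call, and their medians were -0.14, 0.02 and -0.69.

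Between PM and vehicle these lists had few calls elsewhere. In B cells E2f2 (-0.96) and Ccne2 (-0.87) of the G1/S machinery, Rrm2 (-0.61) of the E2F targets and Ccnb2 (-0.67) of the mitotic genes were lower, with list medians of -0.18, -0.20 and -0.54 beside 0.01 over all genes. Pro-B and large pre-B cells had Myc higher (1.40), and neutrophils as a whole also had Myc higher (1.08). Myc is known to drive Ccnd2 and Cdk4 transcription in many cells. Cdk4 was called in neither of these sets of cells, and the part of Myc in the member values was not tested. In mature B cells Dut was higher (0.90) and E2f2 lower (-0.66). In immature neutrophils E2f8 (-0.68), E2f2 (-0.60), Ccnb2 (-0.91) and Mki67 (-0.86) were lower, and in mature neutrophils Rbl2 (-0.64). No other type of the 13 had a call on these lists apart from the mitotic genes of T cells given above.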

How the data were processed

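Bone marrow libraries of 4 mice were made with the 10x Chromium 3′ kit, and the deposited matrices hold UMI counts per gene and cell barcode, which the authors made with Cell Ranger. The methods name the GRCm38 reference and the labels GRCm39, so positions are those of the GENCODE and RefSeq annotation of GRCm38. Cells under 300 genes or above 20% mitochondrial UMIs were left out. They were clustered without the 10 genes (scanpy 1.11.5, 2500 variable genes, 30 principal components, 15 neighbours, resolution 1), and clusters were named from marker lists. Clusters of 935 and 637 cells, which lay between types or B-cell stages, were clustered again by themselves into 8 parts each. This second pass used fewer variable genes and components and a lower resolution. The pro-B, small pre-B and early stem stages all consist of such parts. Doublets were scored at 0.8% per 1000 barcodes (6.77% to 11.3% of cells) and kept, with their removal as an alternative. Counts were summed per mouse and type with at least 10 cells per mouse, and tested with edgeR 4.0.16 (quasi-likelihood, TMM, filterByExpr) in R 4.3.3. DESeq2 1.42.0 was an alternative, as were RLE factors, no filter, a replicate block, each mouse left out, stricter cells, clustering with the 10 genes, cells without mitotic UMIs and library totals as the scale, the last chosen after seeing the data. SE is the log2 fold change over the root of F. All 10 genes were named in every type, and of the pathway lists the called genes with the 3 largest changes, of which 1 is not reported here. The genes and lists were chosen with earlier results of these data known. The labels number the mice of each group 1 and 2 but do not pair them. Labels do not state separate litters or batches, so p-values measure the spread between these mice. Intervals and limits of a count of 0 (3 counts per sum) cover counting error only. The scripts were tested on simulated counts. Unnamed cells, undecided plasma-like cells and protein sequences were not used here.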

Additional observations from a re-analysis of the deposited data

Results flagged for a closer look

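Differences between cell types in the response to PM were found by the interaction term of edgeR, with the mouse as a block. These terms were fitted under the main setting only, and no alternative was run for them. The PM effect on Cdkn2c in T cells differed from that in mono&prog by -1.48, from that in HSPC by -1.69 and from that in neutrophils by -1.36 on the log2 scale, and Cdkn2c was lower in both PM mice than in both vehicle mice in T cells. The PM effect on Ccnd2 differed between T cells and HSPC by 0.75, although Ccnd2 was called in neither type and its groups overlapped in HSPC. The T cell values of Cdkn2c rest on 36, 44, 45 and 28 UMIs. Cdkn2c is among the genes highest in cells with mitotic UMIs, and 3 of 20 mitotic genes were called lower in T and natural killer cells together, with none of 19 in T cells without natural killer cells. Natural killer cells also gave a smaller share of the pooled T cell UMIs in the PM mice. The part of these genes and cells in the differences was not tested.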

How the results depend on the processing

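Over the 13 types, 7 members were called between PM and vehicle, and the count was 14 with no filter on low counts, 4 with doublets left out, 3 among cells without mitotic UMIs and 7 to 13 when 1 mouse was left out, 13 of them without PM replicate 2. Over all genes the 1611 calls became 4802 with no filter, 2431 with the replicate block and 1377 to 2935 when 1 mouse was left out. Leaving out doublets gave 1336 calls over all genes, cells without mitotic UMIs 1491 and DESeq2 1190. With the replicate block 9 members were called. The labels do not pair mice by number, and deviations of same-numbered mice correlated at -0.138 to 0.212 over types. Each group gives a single difference between its mice, so these values cannot show whether same-numbered mice shared a batch. DESeq2 gave 5 member calls, and no adjusted p for 2 of the called changes, Cdkn2c in T cells and Rb1 in pro-B and large pre-B cells. Between clonal and other plasma-like cells, 8 members were called, 7 with no replicate block and 6 to 8 under the other settings. Reversals came for Ccnd2 (0.85) and Ccnd3 (0.56) in that comparison with library totals as the scale, and for Ccnd2 in non-classical monocytes, at -0.22 with all mice, -1.25 to 2.56 with 1 mouse left out and called only without vehicle replicate 1. The call of Ccnd3 between clonal and other cells was lost with DESeq2 (adjusted p = 0.087) and without vehicle replicate 1 (0.067), that of Ccnd2 under 9 alternatives and that of Cdk6 with no filter (0.076). The causes were not tested. Of 2893 recomputed values, 2780 stayed on their side of the threshold, 50 lost a call, 60 gained one and 3 reversed. Values called in neither fit count as staying, so the 50 lost calls come from the much smaller number of recomputed called changes. Losses ran from 0 of 13 alternatives for Cdk6 in immature neutrophils to 9 of 12 for Ccnd2 between clonal and other plasma-like cells. Clustering with the 10 genes gave no early stem and multipotent progenitor stage and so no value there. Depth limits the precision of the low genes: the change of Cdkn2c in T cells rests on 28 to 45 UMIs per mouse and that of Ccnd1 in classical monocytes on 6 to 79.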

Other observations

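Other plasma-like cells, compared between PM and vehicle on their own, gave no called member. Cdk6 came nearest, at 28.0 and 14.3 CPM in the vehicle mice against 44.2 and 58.0 CPM in the PM mice, where the groups did not overlap (log2 fold change 1.14, edgeR adjusted p = 0.71). The megakaryocytes and platelets had Ccnd1 at 36.2 and 51.0 CPM in the vehicle mice and 70.7 and 96.8 CPM in the PM mice, again without overlap and without a call. Macrophages had 48.3 and 33.1 CPM against 109 and 68.99 CPM of Ccnd1, with a log2 fold change of 1.29 (edgeR adjusted p = 0.998).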
